A study of Mus musculus with 2 samples.

Results

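The genes described here act in the uptake and intracellular binding of lipid at the vessel wall: the lipases Lpl and Lipg, the lipase anchor Gpihbp1, the fatty acid receptor Cd36, the fatty acid binding proteins Fabp4 and Fabp5, and the transcription factors Pparg, Meox2 and Tcf15. They were chosen by name for these roles, with earlier results of these data known, and all 9 were found among the 28692 genes counted. Levels were described in endothelial cells and in the other cells of the same libraries.

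Single-cell RNA sequencing was carried out on CD31+ cells of the mouse mesentery at P8, with 1 control library and 1 library from mice with an inducible deletion of Flcn in the endothelium (Flcn iΔEC). Flcn encodes folliculin, a regulator of nutrient signalling at the lysosome. The control library held 6814 cells with 64639756 unique molecular identifiers (UMIs), and the Flcn iΔEC library held 4459 cells with 60805779 UMIs. The comparison asked how loss of Flcn in endothelial cells changed the cells of mesenteric vessels.

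Flcn iΔEC mice carried Flcn flox/flox alleles and Cdh5-BAC-CreERT2, a transgene in which regulatory sequence of Cdh5, the gene of VE-cadherin, drives a tamoxifen-inducible Cre in blood and lymphatic endothelial cells. The alleles of the control mice are not spelled out in the sources used here. Mice of both groups were of the C57BL/6 strain and, per the labels, received 40 µg of 4-hydroxytamoxifen under the skin in 4 injections between P2 and P6.5. Cells were isolated on beads against CD31, and each library pooled the cells of several mice, so that no value could be traced to a single animal.

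The libraries stood apart in genes that bear on sex. Xist, expressed from the inactive X chromosome, had 9 UMIs in the control against 63462 in the Flcn iΔEC library. Conversely, 4 genes of the Y chromosome (Ddx3y, Eif2s3y, Kdm5d and Uty) summed to 15535 UMIs in the control against 17 in the Flcn iΔEC library. Genotype, sex and library therefore cannot be told apart in any value below. The libraries shared 6 cell barcodes. With 1 library per group there was no test between conditions. Each interval of a level or ratio is a 95% interval for counting error only, which leaves out the variation between mice and between cells. Intervals of shares of cells are 95% binomial intervals over cells, which leave out the variation between mice.

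Flcn itself had 1003 UMIs in the control against 784 in the Flcn iΔEC library. Levels are given as CPM, in which the UMIs of a gene are scaled to the UMIs of all genes in the cells summed. In endothelial cells Flcn stood at 10.2 CPM in the control and 9.74 in Flcn iΔEC cells, and the interval of the ratio was 0.773 to 1.17. The level of Flcn transcript thus did not show the deletion. A 3′ tag outside the deleted part of a gene checks nothing, and neither that part nor the place of the tags was read here.

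Triglyceride in circulating lipoproteins is hydrolysed at the luminal face of capillaries. Lipoprotein lipase is made mainly by parenchymal cells such as adipocytes and muscle cells, and is carried across the endothelium and held there by GPIHBP1. The released fatty acids are taken up with the help of CD36 and are bound in the cytosol by fatty acid binding proteins, and PPARγ and the Meox2 and Tcf15 pair are known as regulators of such genes in endothelial cells.

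Endothelial cells were defined by at least 2 Cdh5 UMIs, which gave 566 cells in the control against 892 in the Flcn iΔEC library. They were clustered with the described genes and related lipid genes left out of the clustering, and clusters were named from marker genes. A pair of LEC-like clusters resembled lymphatic endothelial cells (LECs), a larger one (43 control and 160 Flcn iΔEC cells) and a Lyve1-high one (14 and 21), which passed 12 and 10 of 12 lymphatic markers. Sinus LEC-like cells (18 and 43) passed 6 of 8 markers of lymph node sinuses. Arterial-like cells (53 and 110) passed 10 of 12 arterial markers, venous-like cells (73 and 123) 5 of 10 venous markers, and cells like high endothelial venules (HEV-like; 55 and 73) 6 of 8 markers. Capillary-like cells formed a Cxcl12-high cluster (109 and 41), which passed 9 of 10 capillary markers and also 8 of 12 arterial ones, and an Apln-high cluster (48 and 23), which passed 7 of 10 and was led by the pancreatic genes Ctrb1 and Pnliprp1. Proliferating cells (56 and 61) were led by the cell cycle genes Ube2c, Prc1 and Cenpf beside the intestinal genes Spink4 and Defa24. Which vessel types these cells came from in each library was not tested. A cluster led by Aqp8, Slc41a1 and Sbspon (21 and 116) passed 5 of 8 markers of collecting lymphatic vessels and 7 of 12 lymphatic markers. It had none of the collecting markers among its 10 leading genes, which included Gdf10 from another lymphatic list, and is called cluster 4. Clusters led by genes of gamma-delta T and NK cells (40 and 56), B cells (21 and 12), T cells (15 and 8) or erythroid cells (0 and 45) were left without a name. Whether a cluster seen mainly in 1 library was a cell type or a feature of that library was not tested.

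A gene was counted as past the fold when its CPM was at least 2-fold higher or lower in the Flcn iΔEC than in the control library, and the libraries together held at least 50 of its UMIs. In all endothelial cells, 1 of the 9 genes was higher (Lpl) and 4 were lower (Fabp4, Fabp5, Cd36 and Tcf15), where 3.78% of all genes tested were higher and 6.24% lower. The median log2 ratio was -0.68 over the 9 genes and -0.13 over all genes tested. These values also carry the different makeup of the libraries. With each of 13 clusters present in both libraries given the same weight in both, Lpl remained higher, at 3.10-fold, and of the 4 lower genes only Fabp5 stayed past the fold, at 0.447, while Tcf15 came to 0.528, Cd36 to 0.637 and Fabp4 to 0.653.

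**Figure D1:**
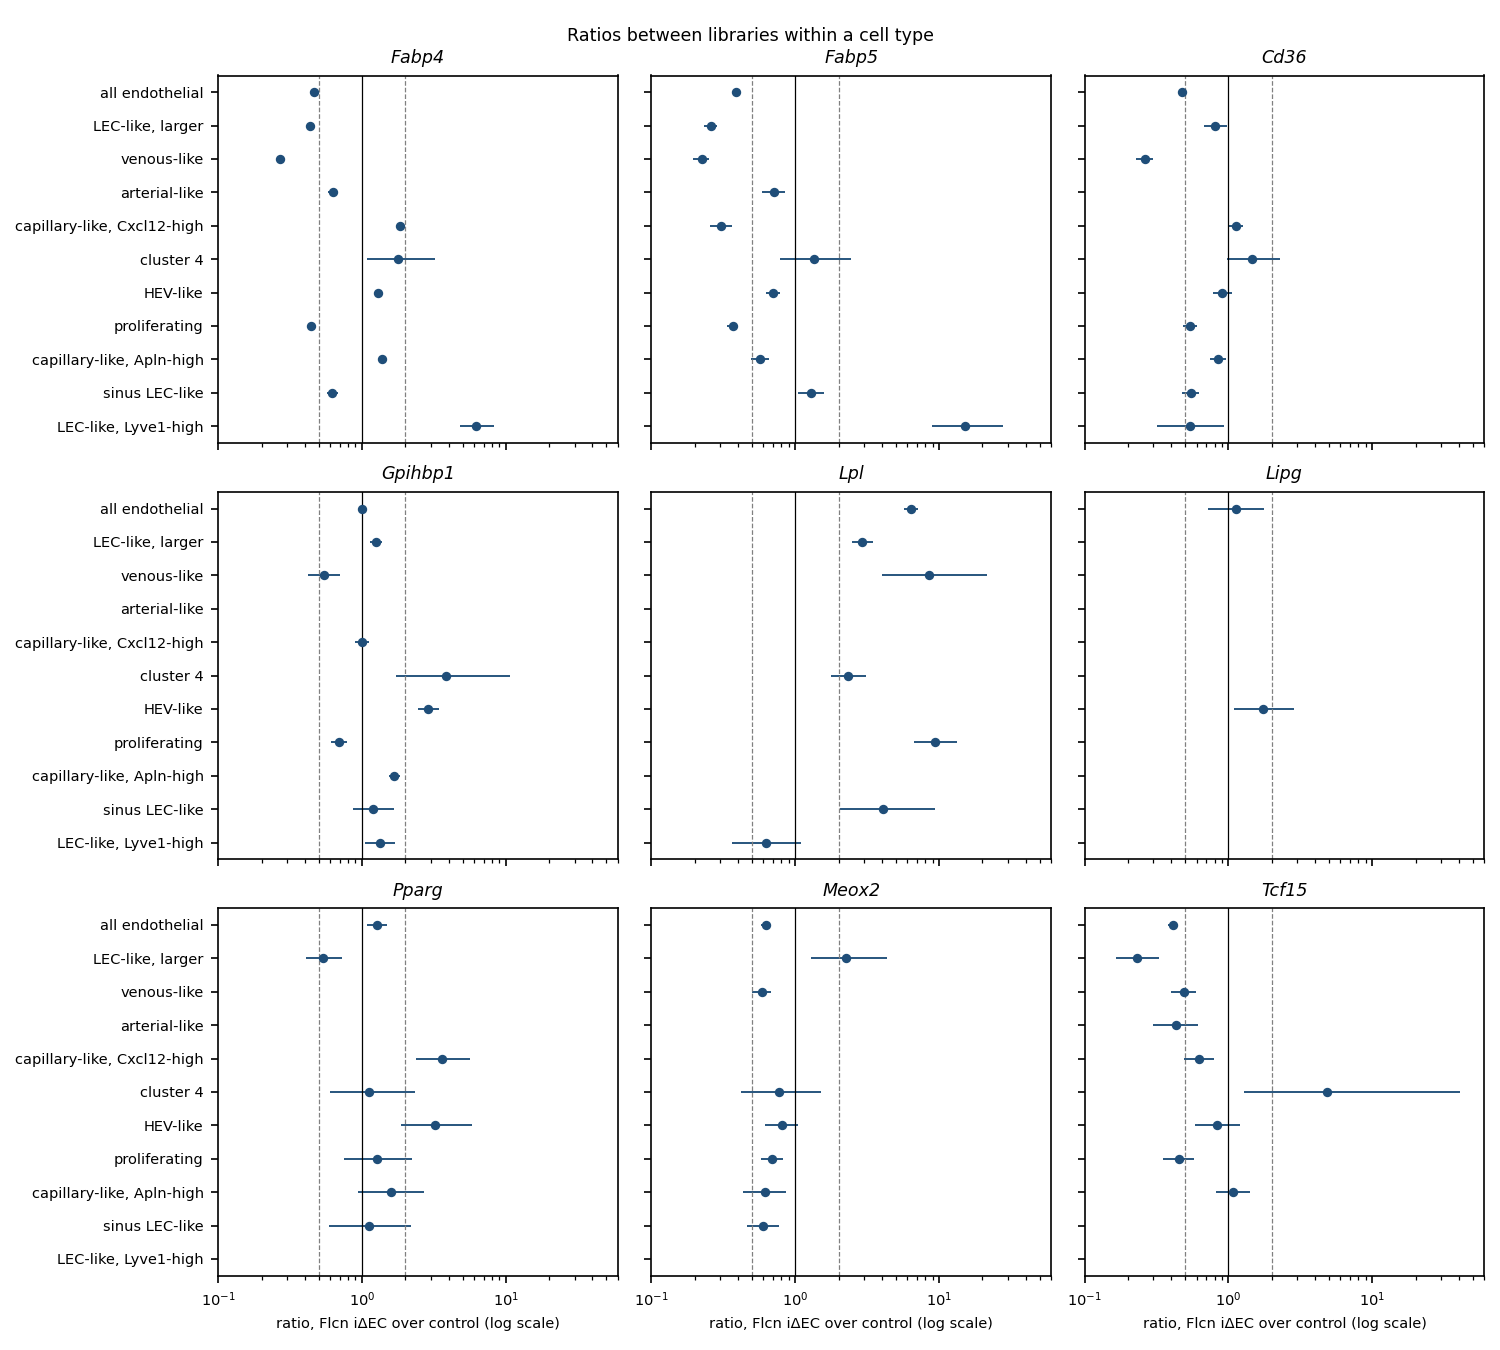
Ratio of CPM in Flcn iΔEC over control cells for each of the 9 genes, on a log axis, in all endothelial cells and in each named cluster. Points are ratios, bars are 95% intervals for counting error, dashed lines mark 2-fold differences, and ratios with under 50 UMIs in all or with no UMI in a library are not drawn. Lpl lies at 6.35 in all endothelial cells, while Fabp4 and Fabp5 lie lower in venous-like cells and higher in the Lyve1-high LEC-like cluster.

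Lpl encodes lipoprotein lipase (ENSMUSG00000015568; chr8:68880491-68907448, plus strand, GRCm38). In all endothelial cells Lpl had 314 UMIs in the control against 3885 in the Flcn iΔEC library. Its level was 22.5 CPM (20.1 to 25.1) in control and 143 (138 to 147) in Flcn iΔEC cells, a ratio of 6.35 (5.66 to 7.14). With the clusters given equal weights the ratio was 3.10. The gene was higher in Flcn iΔEC cells in most of the clusters where it could be compared. In the larger LEC-like cluster Lpl rose from 164 to 481 CPM, by 2.93-fold (2.47 to 3.49). In cluster 4 the level was 124 in control and 288 in Flcn iΔEC cells, or 2.31-fold (1.76 to 3.10). Proliferating cells, whose vessel types in each library were not tested, held 19.2 and 179 CPM, a ratio of 9.34 (6.69 to 13.4). Low control counts limited the ratios of the remaining clusters. In venous-like cells 7 control UMIs stood against 126, or 4.61 against 39.3 CPM, a ratio of 8.53 (4.02 to 21.6). In sinus LEC-like cells 9 UMIs stood against 80, a ratio of 4.10 (2.06 to 9.30). The Lyve1-high LEC-like cluster went the other way, with 107 CPM in control and 67.2 in Flcn iΔEC cells, although the interval of its ratio of 0.625 (0.365 to 1.09) included 1.

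The larger LEC-like cluster held the highest endothelial level of Lpl in both libraries. In the control the larger LEC-like cluster (164 CPM), cluster 4 (124) and the Lyve1-high LEC-like cluster (107) led with overlapping intervals, and all other clusters lay below them. The larger LEC-like cluster stood 12.6-fold (9.99 to 15.8) above the remaining endothelial cells in the control and 6.15-fold (5.77 to 6.56) in the Flcn iΔEC library. In the latter, the order of the larger LEC-like cluster, cluster 4 and proliferating cells was separated beyond counting error, and the Lyve1-high LEC-like cluster lay below them at 67.2. No Lpl UMI was counted in Cxcl12-high capillary-like cells of either library, which allows up to 2.92 CPM in the control and 5.68 in Flcn iΔEC cells at the upper end of the interval. Arterial-like cells had 1 and 16 UMIs, of which 13 lay in 1 cell. Outside the endothelium, fibroblasts and smooth muscle cells held 290.3 CPM in the control against 705 in the Flcn iΔEC library, from 25 and 27 cells, a ratio of 2.43 (1.95 to 3.04). Macrophages and dendritic cells held 32.2 and 195, a ratio of 6.07 (3.11 to 12.8), or 3.25 without the cell with the most Lpl UMIs. These values rest on 3 of 47 control and 2 of 20 Flcn iΔEC cells with a UMI, from a cluster led by the neutrophil genes S100a9 and S100a8. Fibroblasts and smooth muscle cells, which lie outside the endothelium, thus also had a higher level in the Flcn iΔEC library.

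Because adipocytes and macrophages also make Lpl, their markers were counted in the endothelial cells. Of 6 adipocyte markers, 3 were seen in control and 2 in Flcn iΔEC endothelial cells, with 4 and 3 UMIs in all. The most abundant of them, Adipoq in the control and Plin1 in Flcn iΔEC cells, had 2 UMIs each, and Lep and Adig were at 0 in both libraries. In the larger LEC-like cluster all 6 adipocyte markers were at 0 in both libraries. Of 12 macrophage and dendritic cell markers, 10 were seen in each library, at 20.9 CPM in control and 19.8 in Flcn iΔEC cells, with Mrc1 as the most abundant and Fcgr1 at 0 in both. Within the larger LEC-like cluster these markers summed to 9.18 and 10.8 CPM. All 6 fibroblast markers were seen in both libraries, at 79.4 and 25.2 CPM, with Col3a1 as the most abundant. All 7 smooth muscle and pericyte markers were seen as well, at 143 and 106, led by Tagln in the control and Acta2 in Flcn iΔEC cells. Among the lists counted here erythroid markers differed most, at 34.0 and 636 CPM for 7 of 7 markers, led by Hbb-bs. Of their 17297 UMIs in Flcn iΔEC endothelial cells, 16046 lay in the cluster led by erythroid genes. In the larger LEC-like cluster erythroid markers stood at 31.0 and 42.2 CPM. B cell markers (8 of 8, led by Ighm) stood at 307 and 102, T cell markers (10 of 10, led by Cd4) at 145 and 68.2, and epithelial markers (4 of 4, led by Krt18) at 117 and 43.3. The part of these markers in the values of the lipid genes was not tested.

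Lipg encodes endothelial lipase, which acts mainly on phospholipids of high-density lipoproteins (ENSMUSG00000053846; chromosome 18, GRCm38). The gene was scarce, with 31 UMIs in control and 68 in Flcn iΔEC endothelial cells, or 2.22 CPM (1.51 to 3.15) against 2.50 (1.94 to 3.17). The ratio of 1.13 (0.726 to 1.78) showed no difference detectable at this depth, while at equal weights of the clusters the ratio was 1.76. Most of these UMIs lay in HEV-like cells. There the level was 8.65 CPM in control and 15.1 in Flcn iΔEC cells, 23.4-fold (8.16 to 92.1) and 43.9-fold (20.9 to 106) above the other endothelial cells of the same library. Between the libraries, HEV-like cells differed by 1.75-fold (1.09 to 2.86), and by 1.36-fold without the cell with the most Lipg UMIs. At 0 were 9 of 13 clusters in the control and 8 of 14 in the Flcn iΔEC library. B cells held 4.61 and 6.37 CPM and T cells 0.617 and 1.25, so that the level over all endothelial cells lay below that of B cells and above that of T cells. The intervals of endothelial and T cells overlapped in the Flcn iΔEC library.

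Gpihbp1 encodes the glycosylphosphatidylinositol-anchored protein that binds lipoprotein lipase on capillary endothelium (ENSMUSG00000022579; chr15:75596628-75599481, plus strand, GRCm38). Over all endothelial cells its level was alike in the libraries, at 249 CPM (241 to 257) in control and 248 (243 to 254) in Flcn iΔEC cells, a ratio of 0.998 (0.958 to 1.04). At equal weights of the clusters the ratio was 1.23. Higher and lower clusters lay behind this even total, the lower ones past the fold being those led by genes of gamma-delta T and NK cells (0.293) and of T cells (0.391). HEV-like cells held 62.8 CPM in control and 181 in Flcn iΔEC cells, 2.89-fold more (2.46 to 3.40). In cluster 4, 6 control UMIs stood against 154, a ratio of 3.82 (1.71 to 10.6). Venous-like cells had a lower level in the Flcn iΔEC library, 41.8 against 77.1 CPM, which gave 0.543 (0.420 to 0.701) and did not pass the fold.

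Capillary-like cells led for Gpihbp1 in both libraries. Apln-high capillary-like cells held 1350.4 CPM in control and 2274 in Flcn iΔEC cells, 6.86-fold (6.34 to 7.42) and 10.7-fold (9.99 to 11.4) above the remaining endothelial cells. Next in the control came Cxcl12-high capillary-like cells at 710.1 CPM, followed by the larger LEC-like cluster at 567. In the Flcn iΔEC library these last clusters could not be separated, at 706 and 710.3. The difference between the libraries depended on the assignment of cells, since the log2 ratio of 0.56 over both capillary-like clusters came to -0.01 with a filter on cell quality, -0.09 without called doublets and -0.07 with all variable genes. Those settings left only 28 to 31 control and 15 to 17 Flcn iΔEC capillary-like cells. Gpihbp1 stayed higher in these cells without integration, with a gate of 1 Cdh5 UMI and with marker lists. The LEC-like clusters were thus not devoid of the anchor, and the larger one differed between the libraries by 1.25-fold (1.14 to 1.38). Arterial-like cells stood at the bottom of both orders. They had 0 UMIs in the control against 25 in the Flcn iΔEC library, of which 24 came from 1 cell. With under 50 UMIs in all, Gpihbp1 was not tested in these cells. No Gpihbp1 UMI was found in fibroblasts and smooth muscle cells or in macrophages and dendritic cells of either library.

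**Figure D2:**
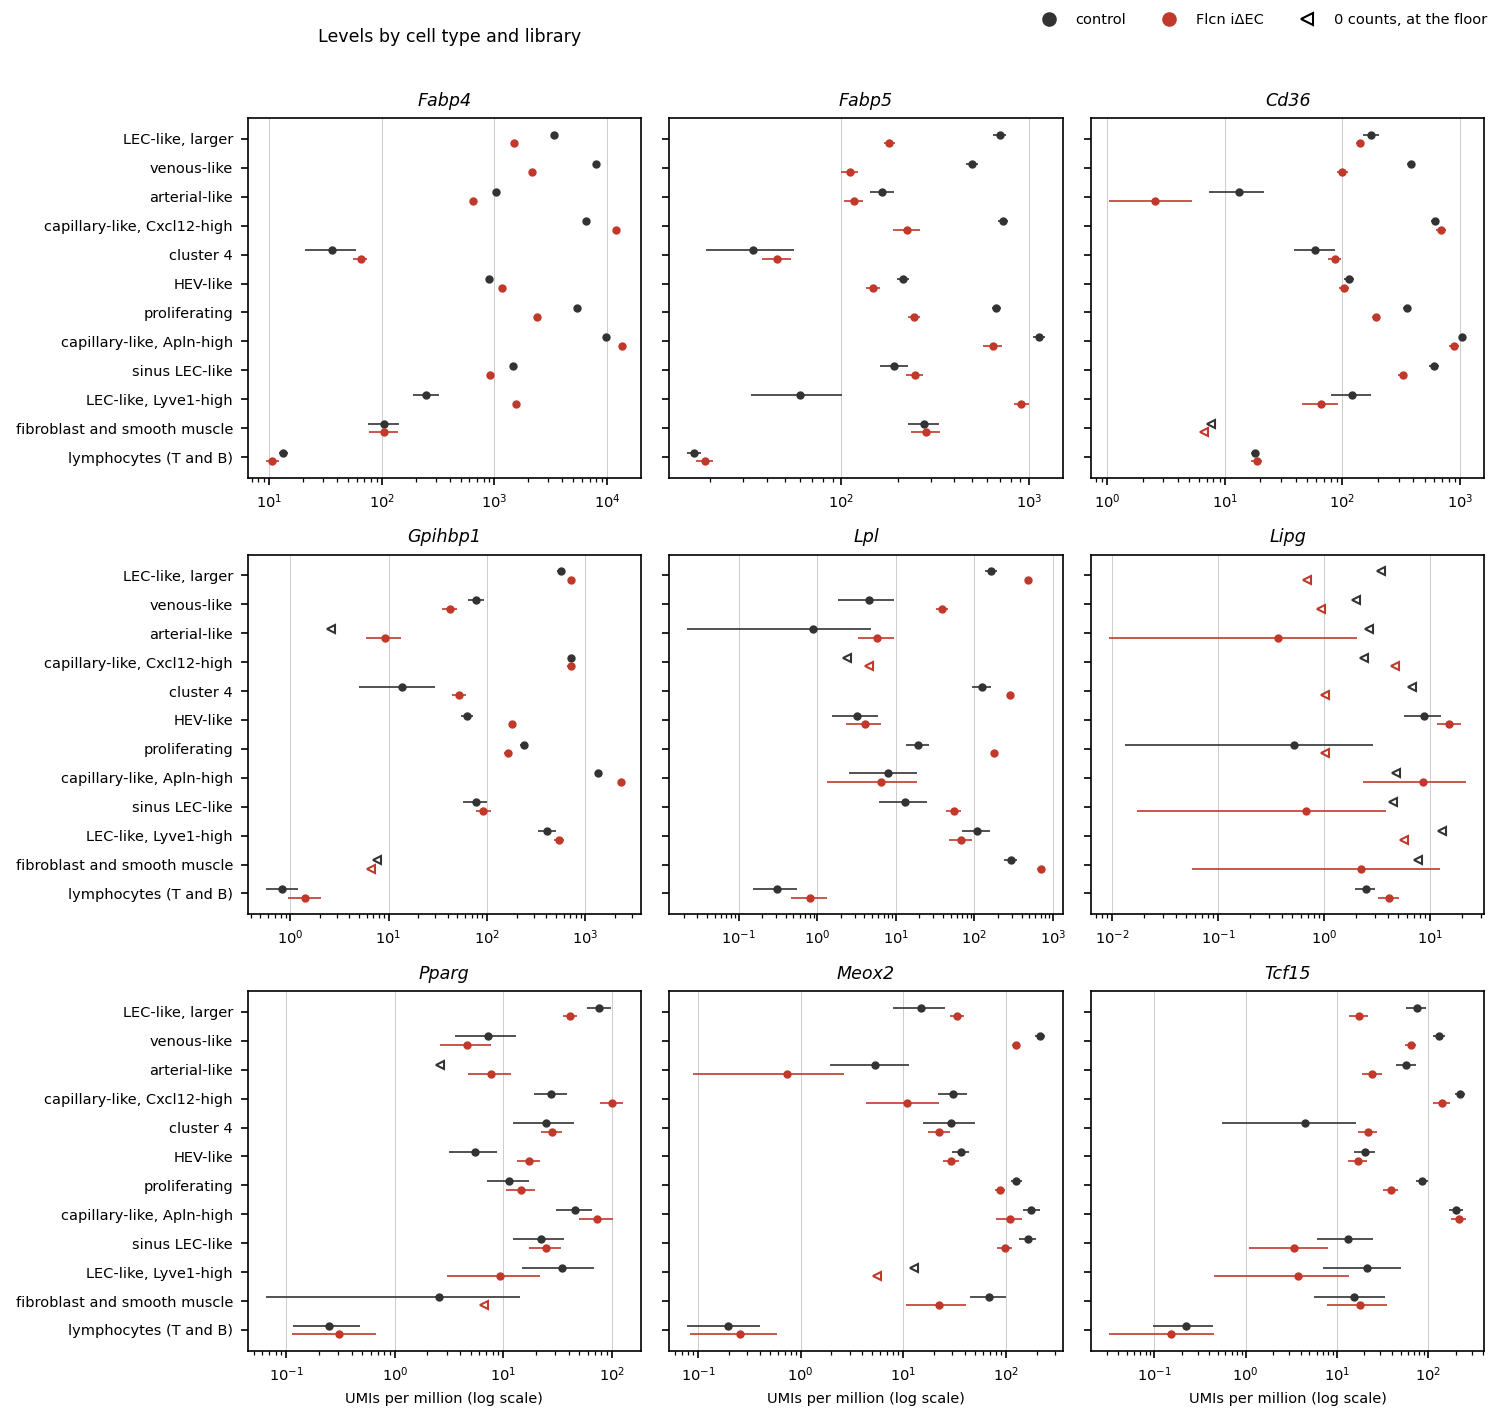
CPM of each of the 9 genes by cell type, on a log axis, in the control (black) and Flcn iΔEC (red) library. Bars are 95% Poisson intervals for counting error, and open triangles mark 0 counts at the level that 3 counts would give. Gpihbp1, Cd36 and Fabp4 are highest in Apln-high capillary-like cells, at 1350.4, 1047 and 9793 in the control, whereas Lpl is highest in the larger LEC-like cluster among endothelial cells, at 164.

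Cd36 encodes a scavenger receptor that promotes uptake of long-chain fatty acids (ENSMUSG00000002944; chr5:17781690-17888801, minus strand, GRCm38). Its level over all endothelial cells was 299 CPM (290.0 to 308) in control and 141 (137 to 146) in Flcn iΔEC cells, a ratio of 0.472 (0.451 to 0.493). Venous-like cells were the only named cluster past the fold, with arterial-like cells not tested at 22 UMIs in all. Their level was 382 in control and 99.9 in Flcn iΔEC cells, or 0.261 (0.227 to 0.300), a log2 ratio of -1.94 that came to -1.22 with marker lists in place of clusters. In the capillary-like clusters, where the gene was highest, the libraries lay closer together. Apln-high cells held 1047 CPM in control and 885 in Flcn iΔEC cells (0.845, 0.745 to 0.957), and Cxcl12-high cells 611 and 689 (1.13). Their sum, at a log2 ratio of 0.03, passed the fold upward with a filter on cell quality (1.45), without called doublets (1.02) and with all variable genes (1.44), so the even level depended on the assignment of cells. Proliferating cells (0.543, 0.485 to 0.608) and sinus LEC-like cells (0.545, 0.476 to 0.623) were lower without passing the fold. Without the cell with the most Cd36 UMIs the proliferating cells passed it, at 0.445. Fewer capillary-like cells in the Flcn iΔEC library, 64 against 157, also entered the value over all endothelial cells, and their weight in it was equalised only in the ratio of 0.637 given above.

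The order of Cd36 levels was headed by Apln-high and then Cxcl12-high capillary-like cells in both libraries. Sinus LEC-like cells followed at 596 CPM in the control, with an interval that overlapped that of the Cxcl12-high cells, and at 325 in the Flcn iΔEC library, where they were separated. Arterial-like cells were lowest in both, at 13.2 and 2.56. Venous-like cells came after the sinus LEC-like cells in the control. In the Flcn iΔEC library they lay below the larger LEC-like cluster at 142, and could not be separated from HEV-like cells at 103 or from cluster 4 at 85.6. Macrophages and dendritic cells held 61.7 CPM in the control against 380.3 in the Flcn iΔEC library, from 47 and 20 cells, and 37 of the 74 UMIs of the latter came from 1 cell. These cells were split from a cluster led by neutrophil genes, as said above for Lpl.

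Lipg was left out of the search of promoters. Promoters of 300 bases from RefSeq (GRCm38.p6) were read for Cd36, Pparg and Meox2, while Fabp4, Fabp5, Gpihbp1, Lpl and Tcf15 had no promoter entry. They were searched on both strands for the letters AGGTCA, which read TGACCT on the other strand and form the half-site of nuclear receptors such as PPARγ, for CACGTG, the same on both strands and bound by factors with a basic helix-loop-helix domain, and for TAATTA, also the same on both strands and bound by homeodomain factors. Among 32851 promoters of the same length, 16.3% held AGGTCA, 7.15% CACGTG and 5.29% TAATTA. Promoters of Cd36 and Pparg are shown because they held a match. That of Cd36, chr5:17835847-17836146 on the minus strand, starts from a site inside the annotated gene and held 1 match, written in capitals, on the strand opposite to the gene.
Cd36: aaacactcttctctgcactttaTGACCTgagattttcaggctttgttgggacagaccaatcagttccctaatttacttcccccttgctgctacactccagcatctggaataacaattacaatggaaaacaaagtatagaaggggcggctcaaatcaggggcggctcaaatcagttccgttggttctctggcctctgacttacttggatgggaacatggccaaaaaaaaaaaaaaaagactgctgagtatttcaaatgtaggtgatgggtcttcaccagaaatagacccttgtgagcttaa
A match of 6 letters is a description of the sequence and shows no binding.

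Fabp4 encodes a cytosolic fatty acid binding protein known from adipocytes and from microvascular endothelium (ENSMUSG00000062515; chr3:10204088-10208576, minus strand, GRCm38). Over all endothelial cells, 52662 UMIs were counted in the control against 47654 in the Flcn iΔEC library. The level was 3773 CPM (3741 to 3806) in control and 1751 (1736 to 1767) in Flcn iΔEC cells, a ratio of 0.464 (0.458 to 0.470). Clusters moved in both directions. Venous-like cells showed the lowest ratio of the named clusters, with 7883 CPM in control and 2135 in Flcn iΔEC cells, or 0.271 (0.263 to 0.279), a log2 ratio of -1.88 that came to -1.03 with marker lists in place of clusters. The larger LEC-like cluster held 3373 and 1478 (0.438, 0.420 to 0.458), while over all LEC-like cells the log2 ratio was -0.87, or -0.52 with marker lists. Proliferating cells held 5404 and 2389 (0.442, 0.429 to 0.456). In capillary-like cells, by contrast, Fabp4 was higher in the Flcn iΔEC library without passing the fold. Cxcl12-high cells rose from 6493 to 11890.4 CPM (1.83, 1.78 to 1.89), and Apln-high cells from 9793 to 13498 (1.38, 1.33 to 1.43), or by 1.10-fold without the cell with the most UMIs. This direction depended on the assignment of cells, since over both capillary-like clusters the log2 ratio of 0.73 came to -0.03 without called doublets and to -0.08 with marker lists. The Lyve1-high LEC-like cluster passed the fold upward, from 249 to 1552 CPM, a ratio of 6.22 (4.77 to 8.27) in 14 and 21 cells. Sinus LEC-like cells (0.622) and arterial-like cells (0.629) stayed within the fold, and the former passed it, at 0.464, without the cell with the most UMIs.

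In the order of Fabp4 levels, Apln-high capillary-like cells were first in both libraries and cluster 4 last, at 36.1 and 64.8 CPM, a span of 271-fold in the control against 208-fold in the Flcn iΔEC library. Venous-like cells were second in the control, above Cxcl12-high capillary-like cells. In the Flcn iΔEC library they had dropped behind both capillary-like clusters, the cluster led by T cell genes and proliferating cells. The named neighbours in the control order were all separated beyond counting error. In the Flcn iΔEC library the Lyve1-high and the larger LEC-like cluster were not separated. Lymphocytes carried 13.4 and 10.7 CPM.

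Fabp5 encodes a related binding protein found in epidermis, macrophages and endothelium (ENSMUSG00000027533; chr3:10012548-10016607, plus strand, GRCm38), and lies near Fabp4 on the same chromosome. Its level over all endothelial cells was 439 CPM (428 to 449.9) in control and 170.0 (165 to 175) in Flcn iΔEC cells, a ratio of 0.388 (0.373 to 0.403). No other of the lower genes stayed past the fold at equal weights of the clusters. Venous-like cells held 498 and 111 CPM (0.223, 0.196 to 0.253), and the larger LEC-like cluster 699 and 180.3 (0.258, 0.232 to 0.287). Cxcl12-high capillary-like cells held 728 and 223 (0.307, 0.256 to 0.366). These calls depended in part on the assignment of cells. With marker lists the log2 ratio of -2.16 in venous-like cells came to -1.38. In LEC-like cells the log2 ratio of -1.12 over both clusters came to -0.14 with marker lists and to -0.87 without integration. In capillary-like cells the log2 ratio of -1.11 over both clusters came to -0.89 without integration and to -0.90 with finer clusters. Proliferating cells were lower too, with 669 and 245 CPM (0.367, 0.335 to 0.402). Apln-high capillary-like cells stayed within the fold at 0.569 (0.496 to 0.652), and passed it at 0.418 without the cell with the most UMIs. In the Lyve1-high LEC-like cluster the gene was higher, with 14 UMIs in the control against 488 in the Flcn iΔEC library, or 60.2 against 911 CPM, a ratio of 15.1 (8.94 to 27.9). This cluster took the first place in the Flcn iΔEC order, which Apln-high capillary-like cells held in the control at 1127 CPM. In the control most neighbours below that place overlapped, from Cxcl12-high capillary-like cells down to venous-like cells, and cluster 4 was lowest in both libraries, at 33.9 and 45.3. Outside the endothelium, fibroblasts and smooth muscle cells held 275 CPM in control and 283 in the Flcn iΔEC library. Epithelial cells of a cluster led by Ins2 held 162 and 706, from 44 and 7 cells.

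Pparg encodes PPARγ, a nuclear receptor activated by fatty acid ligands (ENSMUSG00000000440; chr6:115360951-115490399, plus strand, GRCm38). Its level over all endothelial cells was 17.0 CPM (14.9 to 19.3) in control and 21.6 (19.9 to 23.5) in Flcn iΔEC cells, a ratio of 1.27 (1.09 to 1.49). Higher levels in the Flcn iΔEC library were found in Cxcl12-high capillary-like and HEV-like cells. The former held 35 and 65 UMIs, a ratio of 3.61 (2.36 to 5.61) after scaling. Over both capillary-like clusters the log2 ratio of 1.39 fell within the fold without integration (0.75), with finer clusters (0.40) and with marker lists (0.79). HEV-like cells held 5.45 and 17.4 CPM, a ratio of 3.19 (1.86 to 5.79) from 17 and 69 UMIs. In the larger LEC-like cluster the level was 76.9 in control and 41.5 in Flcn iΔEC cells, or 0.539 (0.405 to 0.725), within the fold. Arterial-like cells had 0 UMIs in the control against 21 in the Flcn iΔEC library and were not tested. The first place passed from the larger LEC-like cluster in the control to Cxcl12-high capillary-like cells in the Flcn iΔEC library, although the leading clusters overlapped their neighbours in both.

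For Pparg, RefSeq gave 3 start sites, 2 of which held a match to AGGTCA on the strand of the gene, in capitals, within chr6:115360894-115361193 and chr6:115362099-115362398.
Pparg, first start: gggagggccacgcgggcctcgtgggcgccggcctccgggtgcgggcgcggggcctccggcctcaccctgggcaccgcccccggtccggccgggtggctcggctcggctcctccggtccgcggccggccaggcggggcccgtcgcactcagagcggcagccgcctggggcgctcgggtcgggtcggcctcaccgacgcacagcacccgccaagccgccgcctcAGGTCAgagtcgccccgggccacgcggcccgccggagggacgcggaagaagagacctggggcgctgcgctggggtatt
Pparg, second start: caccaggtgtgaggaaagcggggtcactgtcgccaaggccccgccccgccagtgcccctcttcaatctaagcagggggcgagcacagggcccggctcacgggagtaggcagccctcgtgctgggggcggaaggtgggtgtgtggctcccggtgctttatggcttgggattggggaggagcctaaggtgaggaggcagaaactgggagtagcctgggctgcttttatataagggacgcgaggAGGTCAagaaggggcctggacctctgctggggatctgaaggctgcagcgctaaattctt
Neither CACGTG nor TAATTA occurred in these promoters or in that of Cd36, and the promoter of Meox2 held none of the searched letters. The remaining Pparg promoter, chr6:115421816-115422115, held none either. The 3′ tags counted here do not tell which start was used.

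Meox2 encodes a homeobox factor known as a partner of TCF15 in heart endothelium (ENSMUSG00000036144; chr12:37108540-37179534, plus strand, GRCm38). Over all endothelial cells its level was 82.3 CPM (77.6 to 87.2) in control and 51.2 (48.6 to 54.0) in Flcn iΔEC cells, or 0.622 (0.575 to 0.673), within the fold. Venous-like cells led in both libraries. They held 215 CPM in control and 126 in Flcn iΔEC cells (0.584, 0.503 to 0.678), and stood 3.26-fold (2.86 to 3.71) and 3.05-fold (2.71 to 3.43) above the other endothelial cells. Apln-high capillary-like and sinus LEC-like cells followed with overlapping intervals. The larger LEC-like cluster was the only named cluster past the fold among those with at least 50 UMIs, and the only higher one, with 14.9 CPM in control and 33.7 in Flcn iΔEC cells, a ratio of 2.26 (1.28 to 4.34) that rests on 13 control UMIs. Over both LEC-like clusters the log2 ratio of 1.35 fell within the fold at gates of 1 and 3 Cdh5 UMIs (0.62 and 0.63), without integration (0.84) and with coarser clusters (0.33). When cells were assigned by marker lists without clusters the direction turned, to -0.91. No Meox2 UMI was counted in the Lyve1-high LEC-like cluster of either library. Fibroblasts and smooth muscle cells held 68.8 and 22.3 CPM, from 27 and 10 UMIs.

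Tcf15 encodes a basic helix-loop-helix factor (ENSMUSG00000068079; chr2:152143561-152149097, plus strand, GRCm38). Over all endothelial cells Tcf15 had 82.2 CPM (77.5 to 87.1) in control and 33.8 (31.7 to 36.1) in Flcn iΔEC cells, a ratio of 0.411 (0.377 to 0.449). Lower levels past the fold were found in 4 named clusters. The larger LEC-like cluster held 74.6 and 17.4 CPM (0.233, 0.165 to 0.330). Arterial-like cells held 57.1 and 24.5 (0.429, 0.301 to 0.613), and proliferating cells 86.0 and 38.8 (0.452, 0.353 to 0.576). Venous-like cells were close to the limit, with 132 and 64.3 CPM (0.488). With marker lists the log2 ratio came to -0.94 in LEC-like and -0.60 in venous-like cells, both within the fold. Capillary-like cells, which held the most Tcf15 in both libraries, stayed within the fold, with 224 and 140.0 CPM in the Cxcl12-high cluster and 199.9 and 216 in the Apln-high one. Their direction depended on the assignment of cells, since the log2 ratio of -0.33 over both clusters came to 0.62 with a filter on cell quality or without called doublets, 0.59 with all variable genes, 0.32 without integration and 0.29 with finer clusters. These clusters overlapped in the control and were separated in the Flcn iΔEC library. Cluster 4 was higher, with 2 UMIs in the control against 65 in the Flcn iΔEC library, a ratio of 4.83 with an interval from 1.29 to 40.8.

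Counted by cluster, the 9 genes moved both ways. In the larger LEC-like cluster 2 of 8 tested genes were higher (Lpl and Meox2) and 3 lower (Fabp4, Fabp5 and Tcf15), against 4.87% and 6.37% of all genes tested. In venous-like cells 1 of 7 was higher (Lpl) and 4 were lower (Fabp4, Fabp5, Cd36 and Tcf15), against 3.63% and 4.44%, and the median log2 ratio was -1.03 over the genes tested and -0.08 over all genes. Venous-like cells therefore held the largest number of lower genes of any named cluster, a rank that depended on these choices. Without the cell with the most Cd36 UMIs, Cd36 was also past the fold in proliferating cells. With marker lists, Tcf15 was within the fold in venous-like cells. In proliferating cells 1 of 8 was higher and 3 were lower, against 3.90% and 5.53%. In cluster 4, 3 of 8 were higher (Lpl, Gpihbp1 and Tcf15) and 0 lower, against 6.52% and 6.56%, and its median of 0.69 stood beside -0.15 over all genes. In HEV-like cells 2 of 8 were higher (Gpihbp1 and Pparg) and 0 lower, against 2.73% and 1.71%. In the Lyve1-high LEC-like cluster 2 of 5 were higher (Fabp4 and Fabp5) and 0 lower, against 5.02% and 4.13%.

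Few genes passed the fold in the remaining clusters. Arterial-like cells had 0 of 3 higher and 1 lower (Tcf15), against 2.87% and 2.61%. Cxcl12-high capillary-like cells had 1 of 6 higher (Pparg) and 1 lower (Fabp5), against 2.07% and 4.28%. Apln-high capillary-like cells had 0 of 7 in either direction, against 3.40% each way. Sinus LEC-like cells had 1 of 7 higher (Lpl) and 0 lower, against 3.72% and 4.43%. With both capillary-like clusters summed, 1 of 7 was higher and 1 lower, against 2.42% and 3.22%. With both LEC-like clusters summed, 2 of 8 were higher and 2 lower, against 4.27% and 6.14%, since Fabp4 came to 0.548 there. The same gene thus differed in direction between the LEC-like clusters, and that difference was not tested.

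Assignment of cells set part of these counts. With marker lists in place of clusters, 1 of 8 tested genes was higher and 0 were lower in LEC-like cells, against 5.29% and 7.97% of all genes tested. Without integration of the libraries, 122 of the 123 Flcn iΔEC venous-like cells fell into a cluster without a name, so the venous-like values above depend on the alignment of the libraries. The Cxcl12-high cluster kept a capillary-like name in only 31 of 109 control and 17 of 41 Flcn iΔEC cells after removal of called doublets, and in a like part when all variable genes or a filter on cell quality were used. In those cases all capillary-like values came from these few cells, since most Apln-high cells were then unnamed.

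Shares of cells with at least 1 UMI were compared after each cell had been thinned to 2000 UMIs, because Flcn iΔEC endothelial cells were deeper (median 24415 UMIs) than control cells (16127). Shares of lymphocytes are given beside them, at median depths of 6948 UMIs in the control and 7668 in the other library. Cells below 2000 UMIs were left out, 6 control and 3 Flcn iΔEC endothelial cells and 7 and 9 lymphocytes. Fabp4 was seen in 71.6% of control against 52.4% of Flcn iΔEC endothelial cells after thinning, and in 2.68% and 2.11% of lymphocytes. Without thinning the endothelial shares were 83.0% (79.7 to 86.0) and 76.0% (73.1 to 78.8), beside 8.71% and 7.62% of lymphocytes. Lpl was seen in 4.34% of control against 19.6% of Flcn iΔEC endothelial cells, or 17.0% (14.0 to 20.3) and 48.7% (45.3 to 52.0) unthinned, and in 0.0547% and 0.183% of lymphocytes. The share of endothelial cells with Lpl was thus higher, and that with Fabp4 lower, in the Flcn iΔEC library, with the makeup of the libraries included. Within clusters the thinned share of Fabp4 went both ways. It fell from 98.8% to 83.8% in venous-like cells, from 83.8% to 57.1% in the larger LEC-like cluster, from 82.5% to 68.7% in proliferating cells and from 54.7% to 41.1% in sinus LEC-like cells. Smaller falls were seen in Apln-high capillary-like cells, from 97.2% to 93.3%, and in arterial-like cells, from 34.7% to 32.0%. It rose from 82.4% to 94.2% in Cxcl12-high capillary-like cells, from 38.6% to 46.2% in HEV-like cells, from 23.9% to 79.8% in the Lyve1-high LEC-like cluster and from 3.77% to 7.56% in cluster 4. Unthinned shares rose instead in sinus LEC-like cells, from 77.8% to 88.4%, and in arterial-like cells, from 50.9% to 63.6%.

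Among the other genes, Fabp5 was seen in 42.6% and 19.6% of endothelial cells (76.0% and 60.5% unthinned) and Cd36 in 38.4% and 18.6% (72.4% and 57.3% unthinned). Lymphocytes gave 3.00% and 3.24% for Fabp5 and 2.94% and 3.04% for Cd36. Tcf15 fell from 17.7% to 6.21% (59.5% and 36.7% unthinned) and Meox2 from 12.8% to 8.09% (46.1% and 41.8%). The thinned share of Gpihbp1 was 31.1% and 22.6% (51.9% and 50.6% unthinned), while its level in CPM was even. Pparg was alike at 4.27% and 4.34%, although 24.4% and 33.6% of cells carried a UMI without thinning. For Gpihbp1, Pparg, Meox2 and Tcf15 the thinned shares of lymphocytes lay between 0.0370% and 0.286%. Lipg was seen in 0.172% and 0.290% of endothelial cells, below the 0.421% and 0.678% of lymphocytes, while the unthinned shares were 3.00% and 3.03%.

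**Figure D3:**
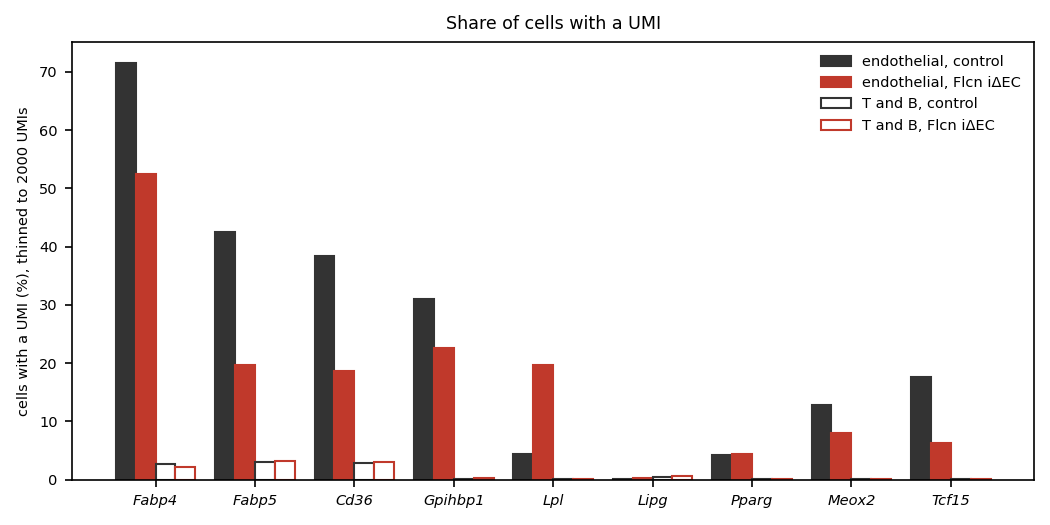
Share of endothelial cells (filled bars) and of T and B cells (open bars) with at least 1 UMI of each gene, in percent, after thinning to 2000 UMIs, in the control (black) and Flcn iΔEC (red) library. Lpl rises from 4.34% to 19.6% of endothelial cells, while Fabp4 falls from 71.6% to 52.4%.

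Other genes of lipid handling were grouped in 9 lists of 99 genes in all. They were compared over all endothelial cells by the same rule, against the same 3.78% higher and 6.24% lower. Ratios over all endothelial cells here too carry the different makeup of the libraries. Of 8 further fatty acid binding proteins, 2 were tested. Fabp3, the heart-type protein, had 1 UMI in the control against 412 in the Flcn iΔEC library, a ratio of 211 with an interval from 37.7 to 8367, and Fabp2, the intestinal protein, was lower at 0.491 (0.319 to 0.755), so that the median log2 ratio of 3.35 stands for these 2 genes only. Fabp2 was a leading gene of epithelial cells, whose markers were also lower in Flcn iΔEC endothelial cells, as given above. Their part in its ratio was not tested. Fabp1 had 18 and 30 UMIs and was not tested. Of 10 lipase partners and inhibitors, 5 were tested and 1 was higher, Angptl4, an inhibitor of lipoprotein lipase, at 41.6 and 116 CPM (2.77, 2.54 to 3.04). Sel1l and Furin, the other abundant genes of that list, had a ratio of 1.05 each. Of 11 genes of fatty acid transport and activation, 9 were tested and 1 was higher, Vegfb, at 37.1 and 111 (3.00, 2.73 to 3.30). Acsl5 (1.31) and Got2 (1.26) stayed within the fold. The median log2 ratios of these last lists were 0.08 and -0.06.

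Lipoprotein receptors and lipid droplet genes contained further higher genes. Of 8 receptors, 7 were tested, of which Vldlr, at 14.0 and 61.4 CPM (4.40, 3.79 to 5.12), and Lrp8, with 7 and 93 UMIs (6.81, 3.18 to 17.4), were higher and Sorl1 was lower (0.374, 0.288 to 0.484). Scarb1 (0.627) and Lrp10 (0.795) stayed within the fold, and the median of the list was -0.23. Of 13 genes of lipid droplets and lipolysis, 12 were tested and 2 were higher. Plin2, which coats lipid droplets, held 46.5 and 131 CPM (2.82, 2.59 to 3.07), and Plin4 had 2 and 175 UMIs (44.9, 12.2 to 373). Plin3 (1.47) and Mgll (1.35) stayed within the fold, and the median of the list was 0.36. The 14 nuclear receptors and coregulators, 13 of them tested, included 2 higher genes. Ppargc1a, which encodes the coactivator PGC-1α, held 2.79 and 48.6 CPM (17.4, 12.7 to 24.6), and Klf15 had 1 and 87 UMIs (44.6, 7.80 to 1782). Ppargc1a was among the leading genes of cluster 4 (21 and 116 cells), so its ratio also carries the makeup of the libraries. Cebpb (1.61), Nr1h2 (0.855) and Ncor1 (0.766) did not pass the fold, and the median was -0.23 here too.

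The remaining lists held no higher gene. All 7 caveolae genes were tested and 0 passed the fold in either direction, with a median of -0.51. Cav1, the main structural protein of caveolae, had a ratio of 0.704 (0.686 to 0.723), Cavin2 of 0.590 (0.577 to 0.604) and Cavin3 of 0.722 (0.699 to 0.747). Within venous-like cells 3 of the 7 were lower, namely Cav1 at 0.444 (0.413 to 0.478), Cavin2 at 0.445 (0.422 to 0.468) and Cavin1, which was named after its value had been seen, against 4.44% of all genes tested there. In the larger LEC-like cluster 2 of the 7 were lower, Cavin2 at 0.428 (0.403 to 0.453) and Ehd2, also named after its value had been seen, against 6.37%. In Cxcl12-high capillary-like cells 0 of the 7 were lower, against 4.28%. All 14 genes of fatty acid oxidation were tested and 0 passed the fold, with a median of -0.09. Acadl (1.51), Hadha (0.869) and Ech1 (0.859) were its most abundant genes. All 14 genes of sterol and fatty acid synthesis were tested and 2 were lower, the desaturase gene Scd1 (0.473, 0.354 to 0.631) and the elongase gene Elovl6 (0.464, 0.384 to 0.560). Scd2 (0.874), Acly (0.907) and Hmgcs1 (0.747) stayed within the fold, and the median was -0.30.

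**Figure D4:**
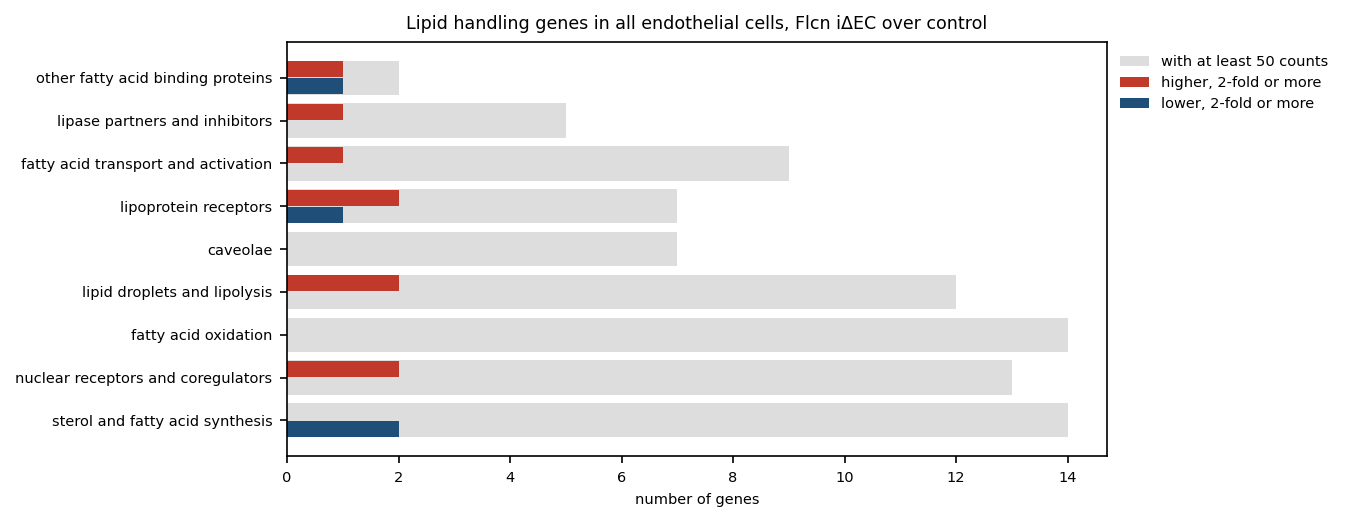
Number of genes of each list with at least 50 UMIs in endothelial cells (grey), and of those at least 2-fold higher (red) or lower (blue) in the Flcn iΔEC than in the control library. Of 14 fatty acid oxidation genes and 7 caveolae genes 0 passed the fold, and 2 of 12 lipid droplet genes were higher.

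Some of these list genes were also compared within clusters. Plin2 held 34.4 CPM in control and 182 in Flcn iΔEC cells of the larger LEC-like cluster (5.30, 3.68 to 7.90), and 57.0 and 440.0 in Cxcl12-high capillary-like cells (7.72, 5.94 to 10.1). In venous-like cells it stayed within the fold at 1.78 (1.33 to 2.40). Vegfb was 6.85-fold higher (4.53 to 10.8) in venous-like cells. Fabp3 had 1 and 172 UMIs in cluster 4 (25.6, 4.53 to 1016), which held its only control UMI. In the larger LEC-like cluster Fabp3 had 0 and 57 UMIs, 3.79-fold above the level that 3 control counts would give. In venous-like cells it had 0 and 35 UMIs and was not tested. Ppargc1a had 2 and 274 UMIs in the larger LEC-like cluster (27.3, 7.50 to 227) and 0 and 5 in venous-like cells, too few for a comparison. Further higher genes were Plin4, with 1 and 76 UMIs (15.2, 2.64 to 607), and Mgll (3.60, 2.90 to 4.50) in the larger LEC-like cluster. Vldlr was higher in venous-like cells (2.84, 1.49 to 5.97), from 11 and 66 UMIs. It was also higher in cluster 4 (2.76, 1.85 to 4.31) and proliferating cells (6.86, 4.38 to 11.3). In the larger LEC-like cluster Vldlr stayed within the fold at 1.64 (1.31 to 2.07), and in the Lyve1-high one at 0.764 (0.475 to 1.25). Angptl4 (3.98, 2.73 to 5.87) and Pnpla2, named after its value had been seen, were higher in Cxcl12-high capillary-like cells. Across the clusters the ratio of Angptl4 ran from 0.960 (0.702 to 1.34) in cluster 4 to 8.24 (5.55 to 12.7) in HEV-like cells. In the larger LEC-like cluster Angptl4 stayed within the fold at 1.30 (1.13 to 1.51). Genes of these lists were lower as well, and Hmgcs1 passed the fold in venous-like cells at 0.464 (0.344 to 0.625) and in the larger LEC-like cluster at 0.433 (0.335 to 0.564). Also lower, and named after their values had been seen, were Slc27a3 in venous-like cells, Lipe and Sqle in the larger LEC-like cluster and Srebf2 in Cxcl12-high capillary-like cells.

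Genes with the most similar pattern to each of the 9 were ranked by Pearson's r of log2(CPM + 1) over 49 groups, each a cell type in a library with at least 20 cells, among 12448 genes. The groups come from only 2 libraries and differ in depth, so r is a description. Other choices of scale or group size changed most of the top genes, as only 4 of 9 stayed with a larger added constant and 0 of 9 with larger groups. For Fabp4 the closest genes were Robo4 (r = 0.938), Emcn (0.931) and Dysf (0.928), and Tcf15 was the closest of the 9 (0.917). Tcf15 and Meox2 shared Ebf3 as the closest gene, at 0.940 and 0.905, and had r = 0.865 with each other. For Tcf15 the next were Filip1 (0.938) and Prex2 (0.934), and for Meox2 they were Mest (0.894) and Plvap (0.889). For Gpihbp1 they were Emcn (0.917), Pcdh12 (0.916) and Sema6b (0.908). For Cd36 they were Cd300lg (0.783), Pik3r6 (0.782) and Rasgrp3 (0.760). For Pparg they were Rab11fip5 (0.811), Cd300lg (0.809) and Btnl9 (0.806). For Fabp5 they were Gna12 (0.841), 2210013O21Rik (0.840) and Nt5dc2 (0.836). For Lpl the closest genes were Ank2 (0.876), Dapk1 (0.846) and Adamtsl1 (0.828). Among the 9, its highest r was 0.523, with Meox2, beside 0.329 with Gpihbp1. Lipg was apart from all, with at most 0.655 for Shmt1, then 0.650 for Krt222 and 0.612 for Agpat9, and with a negative r to each of the other 8 genes.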

How the data were processed

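Single-cell RNA sequencing covered 1 control and 1 Flcn iΔEC library of CD31+ mesenteric cells. The authors made the deposited counts with Cell Ranger 3.0 on mm10, as raw UMI counts per gene and cell, without normalization. Median depth was 7283 UMIs per control cell and 8587 per Flcn iΔEC cell. All cells were kept, including 142 and 37 that Scrublet called doublets.

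Cells with at least 2 Cdh5 UMIs were clustered apart from the others by anchor integration in Seurat 5.3.0 (R 4.3.3), with 1978 of 2000 variable genes left after removal of the 9 genes and the lipid lists, 30 dimensions and a resolution of 0.8. Clusters were named from 25 marker lists, where a marker counted with at least 10 UMIs and 2-fold above the other cells, and a name needed 3 markers and 0.5 of its list. A cluster stayed unnamed when 3 of its 10 leading genes belonged to other cell types, and kept a number only when more of them came from another list than from its own. These limits, the split of mixed clusters outside the endothelium cell by cell, the choice to keep 2 capillary-like and 2 LEC-like clusters apart, and the number given to cluster 4 were set after the clusters and the values of the 9 genes in them had been printed. Other resolutions were tried for the cells outside the endothelium.

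CPM was computed from summed UMIs with exact Poisson intervals, ratios with exact conditional intervals, and shares of cells with exact binomial intervals. Thinning to 2000 UMIs used the exact hypergeometric chance of keeping a UMI. Calls were tested on simulated counts that held counting error only, without variation between cells or mice. Python 3.11.15, numpy 2.4.6, scipy 1.17.1, pandas 2.3.3, scanpy 1.11.5 and matplotlib 3.10.9 were used.

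The genes and the lipid lists were chosen with earlier results of these data known. Genes named are the 9, the 3 of each lipid list with the most UMIs in endothelial cells and those past the fold there, the 3 genes most like each of the 9, cell type markers, leading genes of clusters, Flcn, Xist and Y genes. Of the genes outside this rule, Cavin1, Ehd2, Slc27a3, Lipe, Sqle, Srebf2 and Pnpla2 were chosen after their values were seen. Gates, filters, doublets, integration, resolution, clustering genes, scaling, limits and thinning were varied.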

Additional observations from a re-analysis of the deposited data

Results flagged for a closer look

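For 3 genes, named clusters or cluster 4 moved in opposite directions past the fold, which marked each of the following values, and the difference between clusters was not tested. With the clusters led by genes of other cell types counted too, Gpihbp1 and Meox2 also moved both ways. Fabp4 had ratios of Flcn iΔEC over control of 0.438 in the larger LEC-like cluster, 0.271 in venous-like cells and 0.442 in proliferating cells, against 6.22 in the Lyve1-high LEC-like cluster. Fabp5 had ratios of 0.258 in the larger LEC-like cluster, 0.223 in venous-like cells, 0.307 in Cxcl12-high capillary-like cells and 0.367 in proliferating cells, against 15.1 in the Lyve1-high LEC-like cluster. That last cluster held 14 control and 21 Flcn iΔEC cells. Tcf15 had ratios of 0.233 in the larger LEC-like cluster, 0.488 in venous-like cells, 0.429 in arterial-like cells and 0.452 in proliferating cells, against 4.83 in cluster 4, where the control held 2 UMIs.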

How the results depend on the processing

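No paired analysis was possible because each group had 1 library. Of 266 ratios between the libraries in cell classes over all settings, 192 stayed within the interval, 73 moved outside it and 1 reversed. Only ratios past the fold were counted as reversed, and ratios within it also changed sign in some settings, such as those of Tcf15, Gpihbp1 and Fabp4 in capillary-like cells. Of 88 counts of genes past the fold 65 stayed, and of 67 ratios without the cell with the most UMIs 51 stayed. Of 36 ratios between cell types 16 stayed, of 36 shares 2 and of 18 highest r values 4. The settings that weight clusters alike and leave out a cell were added after the data had been seen. Counts of genes past the fold are given beside the number tested and, in brackets, the share of all genes tested. The cause of the moves was not tested.

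With a gate of 1 Cdh5 UMI, log2 ratios came to -1.05 (Fabp4), -1.30 (Fabp5) and 0.06 (Gpihbp1) in all endothelial cells, -1.06 (Fabp4), 0.24 (Gpihbp1) and -1.33 (Tcf15) in LEC-like cells and 0.77 (Fabp4) and 0.68 (Gpihbp1) in capillary-like cells. The genes past the fold numbered 1 higher of 8 in LEC-like cells (against 4.32%). With a gate of 3, log2 ratios came to -0.79 (Fabp4), -0.59 (Cd36) and 1.77 (Lpl) in LEC-like cells. With this choice, the genes past the fold numbered 1 higher of 8 in LEC-like cells (against 3.99%). With a filter on depth and mitochondrial share, log2 ratios came to -1.13 (Fabp4) in all endothelial cells and 0.43 (Fabp4), 1.45 (Cd36), -0.01 (Gpihbp1) and 0.62 (Tcf15) in capillary-like cells. Without called doublets, log2 ratios came to -0.03 (Fabp4), -1.71 (Fabp5), 1.02 (Cd36), -0.09 (Gpihbp1) and 0.62 (Tcf15) in capillary-like cells. Capillary-like values there rest on 31 control and 17 Flcn iΔEC cells. Without integration, log2 ratios came to -0.08 (Fabp4), -2.46 (Fabp5), 1.07 (Gpihbp1) and -1.49 (Meox2) in venous-like cells, -0.67 (Fabp4), -0.87 (Fabp5), -0.62 (Cd36) and 0.60 (Gpihbp1) in LEC-like cells and 0.31 (Fabp4), -0.89 (Fabp5), 0.97 (Gpihbp1), 0.75 (Pparg), -1.22 (Meox2) and 0.32 (Tcf15) in capillary-like cells. Here the genes past the fold numbered 1 lower and 1 higher of 8 in LEC-like cells (against 5.62% and 3.85%) and 0 higher of 7 in capillary-like cells (against 3.14%). Venous-like values there rest on 64 control cells and 1 Flcn iΔEC cell, and Cd36 gave no value in them because that cell held none of its UMIs.

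At resolution 0.4, log2 ratios came to -1.11 (Fabp4), 0.15 (Gpihbp1) and 0.33 (Meox2) in LEC-like cells and 0.78 (Fabp4) in capillary-like cells. Under it the genes past the fold numbered 1 higher of 8 in LEC-like cells (against 4.23%). At resolution 1.6, log2 ratios came to -1.77 (Fabp4), -2.26 (Cd36) and -1.02 (Meox2) in venous-like cells and 0.42 (Fabp4), -0.90 (Fabp5), 0.40 (Pparg) and 0.29 (Tcf15) in capillary-like cells. The genes past the fold numbered 0 lower and 0 higher of 7 in capillary-like cells (against 2.29% and 3.18%). In that setting log2 ratios over the other endothelial cells came to 1.22 (Fabp4) for control venous-like cells, 0.42 (Fabp4) and 1.14 (Meox2) for Flcn iΔEC venous-like cells, 1.6 (Fabp5), 3.25 (Gpihbp1) and 2.96 (Tcf15) for Flcn iΔEC capillary-like cells and 2.97 (Gpihbp1) and 1.30 (Tcf15) for control capillary-like cells. With all variable genes, log2 ratios came to 0.39 (Fabp4), 1.44 (Cd36), -0.07 (Gpihbp1) and 0.59 (Tcf15) in capillary-like cells. With marker lists in place of clusters, log2 ratios came to -1.03 (Fabp4), -1.38 (Fabp5), -1.22 (Cd36), -0.42 (Meox2) and -0.60 (Tcf15) in venous-like cells, -0.52 (Fabp4), -0.14 (Fabp5), -0.80 (Cd36), 2.06 (Lpl), -0.27 (Pparg), -0.91 (Meox2) and -0.94 (Tcf15) in LEC-like cells and -0.08 (Fabp4), -1.37 (Fabp5), -0.47 (Cd36), 0.31 (Gpihbp1) and 0.79 (Pparg) in capillary-like cells. With this choice, the genes past the fold numbered 0 lower and 1 higher of 8 in LEC-like cells (against 7.97% and 5.29%) and 2 lower and 0 higher of 7 in capillary-like cells (against 4.13% and 2.90%). Meox2 in LEC-like cells turned its direction in that setting, and was the only ratio past the fold to do so.

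Without mitochondrial, ribosomal protein and hemoglobin genes, log2 ratios came to -1.81 (Fabp4) in venous-like cells. With at least 200 UMIs for a call, the genes past the fold numbered 0 higher of 6 in venous-like cells (against 3.02%), 1 lower and 1 higher of 6 in LEC-like cells (against 3.40% and 3.84%) and 0 higher of 6 in capillary-like cells (against 1.84%). With a 4-fold limit, the genes past the fold numbered 0 lower of 9 in all endothelial cells (against 0.906%), 1 lower of 7 in venous-like cells (against 0.648%), 0 lower and 0 higher of 8 in LEC-like cells (against 0.645% and 1.13%) and 0 lower and 0 higher of 7 in capillary-like cells (against 0.483% and 0.384%). With clusters weighted alike, log2 ratios came to -0.61 (Fabp4), -1.16 (Fabp5), -0.65 (Cd36), 0.30 (Gpihbp1), 1.63 (Lpl) and -0.92 (Tcf15) in all endothelial cells. The genes past the fold numbered 1 lower of 9 in all endothelial cells, and the share of all genes was not computed there. Without the cell with the most UMIs, log2 ratios came to -1.26 (Fabp4) and -1.55 (Fabp5) in the larger LEC-like cluster, -1.81 (Fabp4) in venous-like cells, -0.35 (Fabp4) in arterial-like cells, 0.78 (Fabp4) and -0.18 (Gpihbp1) in Cxcl12-high cells, 0.19 (Fabp4) in HEV-like cells, -1.58 (Fabp4), -1.64 (Fabp5), -1.17 (Cd36) and -0.20 (Gpihbp1) in proliferating cells, 0.14 (Fabp4), -1.26 (Fabp5), -0.51 (Cd36) and 0.62 (Gpihbp1) in Apln-high cells and -1.11 (Fabp4) in sinus LEC-like cells.

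As the mean over cells, log2 ratios over the other endothelial cells came to 0.89 (Fabp4) and 1.92 (Meox2) for control venous-like cells, 0.03 (Fabp4) for Flcn iΔEC venous-like cells, 0.84 (Fabp5), 1.51 (Cd36), 2.35 (Gpihbp1) and 1.61 (Tcf15) for control capillary-like cells, 1.09 (Fabp5), 2.54 (Gpihbp1) and 2.91 (Tcf15) for Flcn iΔEC capillary-like cells and 3.35 (Lpl) and 1.89 (Pparg) for control LEC-like cells. Thinned further, to lower depth, shares of endothelial cells in the control and the other library came to 66.5% and 43.4% for Fabp4, 29.3% and 11.9% for Fabp5, 26.2% and 11.5% for Cd36, 23.1% and 16% for Gpihbp1, 2.38% and 12.0% for Lpl, 2.34% and 2.25% for Pparg, 7.07% and 4.31% for Meox2 and 9.90% and 3.48% for Tcf15. Without thinning, shares of endothelial cells in the control and the other library came to 83.0% and 76.0% for Fabp4, 76.0% and 60.5% for Fabp5, 72.4% and 57.3% for Cd36, 51.9% and 50.6% for Gpihbp1, 17.0% and 48.7% for Lpl, 3.00% and 3.03% for Lipg, 24.4% and 33.6% for Pparg, 46.1% and 41.8% for Meox2 and 59.5% and 36.7% for Tcf15.

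Each library held too few cells in several clusters, such as 14 control cells in the Lyve1-high LEC-like cluster, for narrow intervals. No interval covers the variation between mice, and sex, genotype and library cannot be told apart.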
